A study of Mus musculus with 16 samples.

Results

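The hypoxia and glycolysis genes of mouse melanoma tumours are described here across 4 treatment groups and in each of 16 RNA libraries. They are 37 named genes, chosen by symbol from a list of glycolytic enzymes and genes known to be induced by low oxygen. No cut on a measured value was applied, but the list was made with earlier results of these data known. The list was found whole, as 37 of the 46078 genes of the count table, and all 37 passed the filter on low counts, which left 16101 genes to be tested. The tumours grew from B16F10-GP cells, a derivative of the B16 mouse melanoma line, implanted in 25% matrigel on the flanks of female C57BL/6 mice aged 6 to 8 weeks. The untreated group, whose mice received vehicle per the labels' protocol, held 4 libraries. The 5 Gy group (4 libraries) was irradiated with X-rays on day 10, at 5 Gy and on the right flank alone. The QH-II-066 group (4 libraries) was given QH-II-066, which acts on GABA-A receptors, at 10 mg/kg by daily intraperitoneal injection for 7 days from day 10. The combined group (4 libraries) received 5 Gy on the morning of day 10 and QH-II-066 from that evening by the same schedule. Neither the flank nor the mouse behind each library is in the labels. Whether each 5 Gy or combined library came from the irradiated flank is thus not known. It is also not known whether libraries of the same group are separate animals. The p-values therefore measure the spread between these libraries, some of which may be technical. A single transplanted cell line stands for melanoma in every group.

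When oxygen is short, the prolyl hydroxylases that mark the HIF-1alpha and HIF-2alpha proteins for degradation lose activity, and HIF binds short DNA elements with the core ACGTG or GCGTG near its target genes. Those targets include glucose transporters, nearly every glycolytic enzyme, lactate export, kinases that keep pyruvate out of mitochondria, mitophagy receptors and the carbonic anhydrases that manage acid outside the cell. Tumours also express the glycolytic genes at a high level in the presence of oxygen, so that a high level of these transcripts does not by itself measure oxygen.

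The upstream sequences of 5 genes are printed because their levels differ in kind across the libraries described below: Car9, Bnip3 and Slc2a1 were highest in the same library, while Egln3 and Car12 followed another order. These 5 were chosen after their values had been seen. Each is the 250 bases before the RefSeq transcription start (build GRCm38.p6), written 5′ to 3′ on the gene's strand, with capitals for ACGTG or GCGTG on either strand, so that CACGT and CACGC are their reverse complements and overlapping matches count once.
Car9 (chr4:43506776-43507025, plus strand): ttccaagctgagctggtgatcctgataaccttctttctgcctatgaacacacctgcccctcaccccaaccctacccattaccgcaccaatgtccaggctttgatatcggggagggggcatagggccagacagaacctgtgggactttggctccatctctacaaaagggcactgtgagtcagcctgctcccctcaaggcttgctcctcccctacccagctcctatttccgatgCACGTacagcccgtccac
Bnip3 (chr7:138909507-138909756, minus strand): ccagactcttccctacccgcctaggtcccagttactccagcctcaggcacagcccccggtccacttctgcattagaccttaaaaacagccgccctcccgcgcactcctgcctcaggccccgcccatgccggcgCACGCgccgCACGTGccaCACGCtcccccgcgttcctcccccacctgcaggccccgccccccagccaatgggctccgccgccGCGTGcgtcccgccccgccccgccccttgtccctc
Slc2a1 (chr4:119108495-119108744, plus strand): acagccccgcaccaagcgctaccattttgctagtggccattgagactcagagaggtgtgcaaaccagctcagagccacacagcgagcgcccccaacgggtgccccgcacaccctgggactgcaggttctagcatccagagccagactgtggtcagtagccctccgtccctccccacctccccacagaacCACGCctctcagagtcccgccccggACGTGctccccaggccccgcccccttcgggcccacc
Egln3 (chr12:54203875-54204124, minus strand): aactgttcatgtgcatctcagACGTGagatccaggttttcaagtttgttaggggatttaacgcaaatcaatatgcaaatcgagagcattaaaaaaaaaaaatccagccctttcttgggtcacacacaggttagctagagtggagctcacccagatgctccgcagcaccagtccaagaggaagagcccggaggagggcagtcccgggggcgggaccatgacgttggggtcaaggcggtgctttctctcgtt
Car12 (chr9:66713436-66713685, plus strand): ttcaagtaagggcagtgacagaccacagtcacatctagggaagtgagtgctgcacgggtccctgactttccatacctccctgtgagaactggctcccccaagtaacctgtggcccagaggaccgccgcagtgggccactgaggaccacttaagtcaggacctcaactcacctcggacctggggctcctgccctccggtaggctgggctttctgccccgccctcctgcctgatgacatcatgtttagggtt
Car9 had a single match, whose last base lay 14 bases before the start. Bnip3 had 4 matches, the nearest of them 31 bases before the start. Slc2a1 had 2, at 57 and 32 bases, Egln3 had 1 at 225 bases and Car12 had 0 in this window. RefSeq windows were matched for 34 of the 37 genes, and 26 of these (76.5%) held at least 1 match, against 38.6% of 32851 windows of the same length. The 34 genes gave 1 window each, the nearest to the gene start in the count table, whereas the 32851 could include several per gene. The windows counted for Hif1a and Ldha lay 6492 and 4329 bases from that start. At least 2 matches were found in 17 of the 34 (50%), against 13.5% of all windows. The windows of these genes were also richer in G and C, with a median of 62.8% against 52.4% over all windows, and the part of base composition in the share of matches was not tested. A match is a description of letters and not a binding site, and no binding was measured here.

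Total counts per library ran from 6994198 in combined replicate 4 to 40799942 in combined replicate 1. Melanocyte markers were present in each group, with 9 of 9 listed genes above 0 and a summed level of 16157 to 27154 CPM (counts scaled to library size, with TMM factors) over the 16 libraries. Skin epithelium markers set 5 libraries apart, 5 Gy replicates 2 and 4 and combined replicates 2, 3 and 4. Their skin score, the mean log2 CPM of the 14 tested markers of 15 listed, was 3.74 to 7.38, against -2.89 to -0.73 in the other 11 libraries. The summed level of the skin list was 4.06 to 5.98 CPM in untreated, 3.91 to 3836 CPM in 5 Gy, 4.74 to 12.4 CPM in QH-II-066 and 15.6 to 1875 CPM in the combined group, and 7 of the 15 markers were at 0 in every untreated library. In bulk RNA, fewer cells of a type and less RNA per cell cannot be told apart. Libraries also differed in how their deviations followed gene length: this slope, of the deviation in log2 CPM on log2 length, averaged 0.0677 ± 0.174 (SD, n = 4) in untreated, 0.109 ± 0.112 in 5 Gy, -0.0880 ± 0.158 in QH-II-066, with -0.0883 ± 0.120 in the combined group.

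Across the 16 libraries the order of the genes by level was led by glycolytic enzymes, and it depended on the deposited gene lengths. In mean CPM, without length, Gapdh led at 6723, followed by Pkm at 4291 and Eno1 at 4105. On a scale per length (RPKM, counts scaled to library size and to gene length), the 3 highest genes were Pkm, pyruvate kinase, with a mean of 1651, Gapdh, glyceraldehyde-3-phosphate dehydrogenase, with 1627, and Tpi1, triose phosphate isomerase, with 1404. Aldolase A (Aldoa, 1297 RPKM), lactate dehydrogenase A (Ldha, 1075), phosphoglycerate kinase (Pgk1, 1020) and enolase 1 (Eno1, 763) came next, and Gpi1, glucose-6-phosphate isomerase, followed at 286. The libraries of Pkm (1379 to 1965 RPKM) and of Gapdh (793 to 2069) overlapped, as did those of each pair of neighbours from Tpi1 to Eno1. The first steps of glucose use stood lower: Slc2a1, the glucose transporter GLUT1, had a mean of 65.4 RPKM, Hk2 55.4 and Hk1 30.0, the last 2 being hexokinases. At the foot of the order were Egln3, an oxygen-sensing prolyl hydroxylase, at 2.29 RPKM, Pfkfb4, which makes and removes fructose-2,6-bisphosphate, at 1.39, and Car12, a membrane carbonic anhydrase, at 0.348. Car9, the other membrane carbonic anhydrase of the list, had a mean of 108 RPKM.

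**Figure D1:**
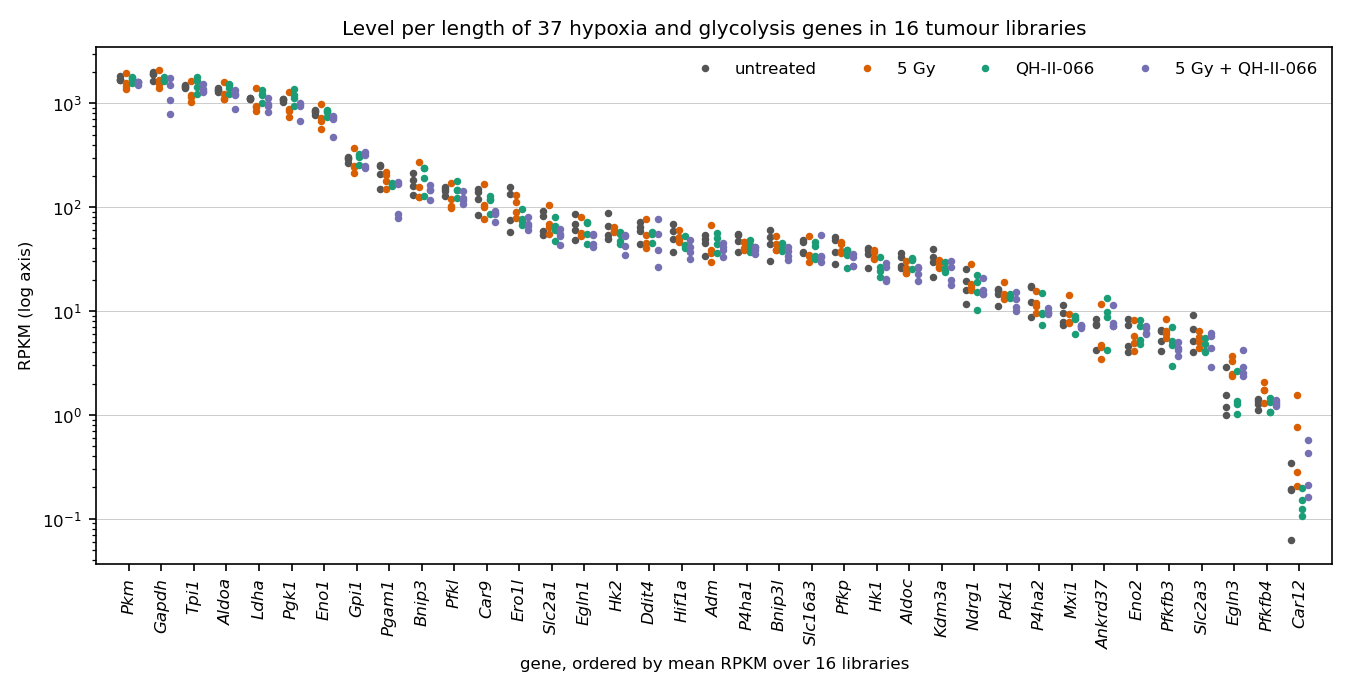
RPKM on a log axis for each of the 37 genes, ordered by mean over 16 libraries, with 1 point per library coloured by group. The 7 highest genes, Pkm to Eno1, have means of 763 to 1651 RPKM, while Car12 at the right end has a mean of 0.348 and the widest spread.

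Counts assigned to the 37 genes made up 2.44% to 4.18% of a library. The share was 3.58% ± 0.345 (SD, n = 4) in untreated, 3.48% ± 0.505 in 5 Gy, 3.44% ± 0.210 in QH-II-066, with 2.91% ± 0.419 in the combined group. The 15 glycolytic enzymes carried most of it, 3.25% ± 0.264 in untreated and 2.66% ± 0.401 in the combined group. No test was made on these shares, since they sum over the genes.

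None of the 37 genes passed the test in any of 8 comparisons, made with edgeR's quasi-likelihood test and Benjamini-Hochberg adjustment over 16101 genes at a threshold of 0.05. For 5 Gy against untreated the count was 0 of 37, beside 1.26% of all tested genes (1.25% higher and 0.00621% lower). In the other 7 comparisons it was 0 of 37 beside 0%. At an unadjusted p under 0.05 the genes numbered 3 for 5 Gy against untreated, all higher, beside 15.1% of all genes, 12.3% higher and 2.81% lower. For QH-II-066 against untreated 1 gene was lower, beside 8.17% (3.14% higher and 5.03% lower). For the combined group against untreated 1 was higher and 11 were lower, beside 16.2% (7.44% higher and 8.8% lower). Its comparison with 5 Gy had 9 lower genes, beside 19.5% (11.6% higher and 7.9% lower), and that with QH-II-066 had 1 in each direction, beside 3.65% (2.77% higher and 0.882% lower). For QH-II-066 against 5 Gy 4 genes were lower, beside 21.1% (11% higher and 10.1% lower). The interaction of radiation and drug had 0, beside 6.96% (1.56% above 0 and 5.4% below), and the test of any difference among the 4 groups had 5, beside 17.8%.

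These unadjusted counts changed with single libraries and, in some comparisons, with the skin score. The shares of all genes at this level under the alternative fits are not given here. The changes can therefore not be read as a trait of these genes. Libraries with skin transcripts were all from the 5 Gy and combined groups, so the score is not independent of radiation. With it in the fit, QH-II-066 against untreated kept 1 lower gene, and the combined group against 5 Gy had 6. The 3 higher genes of 5 Gy against untreated became 0 with the skin score in the fit, without the skin libraries or without 5 Gy replicate 2. Leaving out untreated replicate 1 or 3 gave 1. Without 5 Gy replicate 3 there were 2 higher and 6 lower genes, and limma-voom with sample weights gave 3 higher and 7 lower. For QH-II-066 against untreated the 1 lower gene became 11 without untreated replicate 4 and 0 without untreated replicate 2 or 3 or QH-II-066 replicate 1. The 9 lower genes of the combined group against 5 Gy became 1 without combined replicate 1, 4 without combined replicate 4, 2 without 5 Gy replicate 1, 5 without 5 Gy replicate 3 and 2 with the gene length slope as a covariate. For QH-II-066 against 5 Gy, leaving out 5 Gy replicate 3 gave 9 higher and 3 lower genes, and limma-voom gave 12 higher and 6 lower. After adjustment, limma-voom passed 31.7% of all genes for QH-II-066 against 5 Gy. That comparison had 2 lower genes without 5 Gy replicate 2, or without QH-II-066 replicate 1, 2 or 4. Against QH-II-066, the combined group had 5 lower genes without 5 Gy replicate 3 or QH-II-066 replicate 3, and 0 in either direction with the skin score in the fit.

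Under DESeq2, Car12 passed in 2 of these comparisons and Hk1 and Car12 in the test of any difference, and limma-voom with sample weights passed 5 genes for QH-II-066 against untreated, 11 for QH-II-066 against 5 Gy and 7 for any difference, beside 28.9%, 31.7% and 29.9% of all genes. The 3 comparisons with untreated share its 4 libraries, so their values are not independent. In some comparisons all 4 libraries of a group lay on the same side of all 4 of the other. For the combined group this held for 3 lower genes against untreated (all genes 1.69% lower, 2.53% higher), 5 lower genes against 5 Gy (3.97% and 4.45%) and 0 against QH-II-066 (0.621% and 1.29%). For 5 Gy against untreated it held for 0 genes (3.13% and 5.97%), for QH-II-066 against untreated for 0 (1.55% and 1.37%) and for QH-II-066 against 5 Gy for 2 lower genes, Car12 and Hk2 (3.97% and 3.53%).

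Fold changes of the combined group lay below 0 for most of the genes. Against untreated, 32 of 37 log2 fold changes were below 0 with a median of -0.29, while 50.3% of all genes were below 0 with a median of -0.00. For the counts at an unadjusted p that follow, the shares of all genes under the alternative fits are not given. The 11 lower genes with an unadjusted p under 0.05 became 2 with the skin score as a covariate, where 22 of 37 fold changes were below 0. They numbered 6 in a fit of these 2 groups alone, 6 without untreated replicate 2, 4 without untreated replicate 3 and 17 without untreated replicate 4. Without combined replicate 1 they numbered 4, and without combined replicate 4 they numbered 6. Without the 5 libraries with skin transcripts, which leaves 1 combined library taken to vary like the others, they numbered 8. The comparison with 5 Gy had 31 below 0 (median -0.25, all genes -0.06), and the comparison with QH-II-066 had 32 (median -0.17, all genes -0.02). Without 5 Gy replicate 3 the comparison with 5 Gy had 22 below 0 and a median of -0.09 (all genes -0.07), and limma-voom gave 22 and -0.10. The comparison with QH-II-066 had 22 below 0 and a median of -0.03 once the skin score entered the fit. For 5 Gy against untreated 29 genes were below 0 with a median of -0.10, beside -0.08 for all genes. Without 5 Gy replicate 3 there were 33 below 0 with a median of -0.27 (all genes -0.07), and limma-voom gave 32 and -0.23. The direction turned without the skin libraries, where 8 of 37 were below 0 and the median was 0.06, with the skin score in the fit (13 and 0.04) and without untreated replicate 3 (17 and 0.02). QH-II-066 against untreated had 26 below 0, a median of -0.13 and 0.01 over all genes. Without untreated replicate 3 these were 21 and -0.05, and without untreated replicate 4 they were 29 and -0.20.

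**Figure D2:**
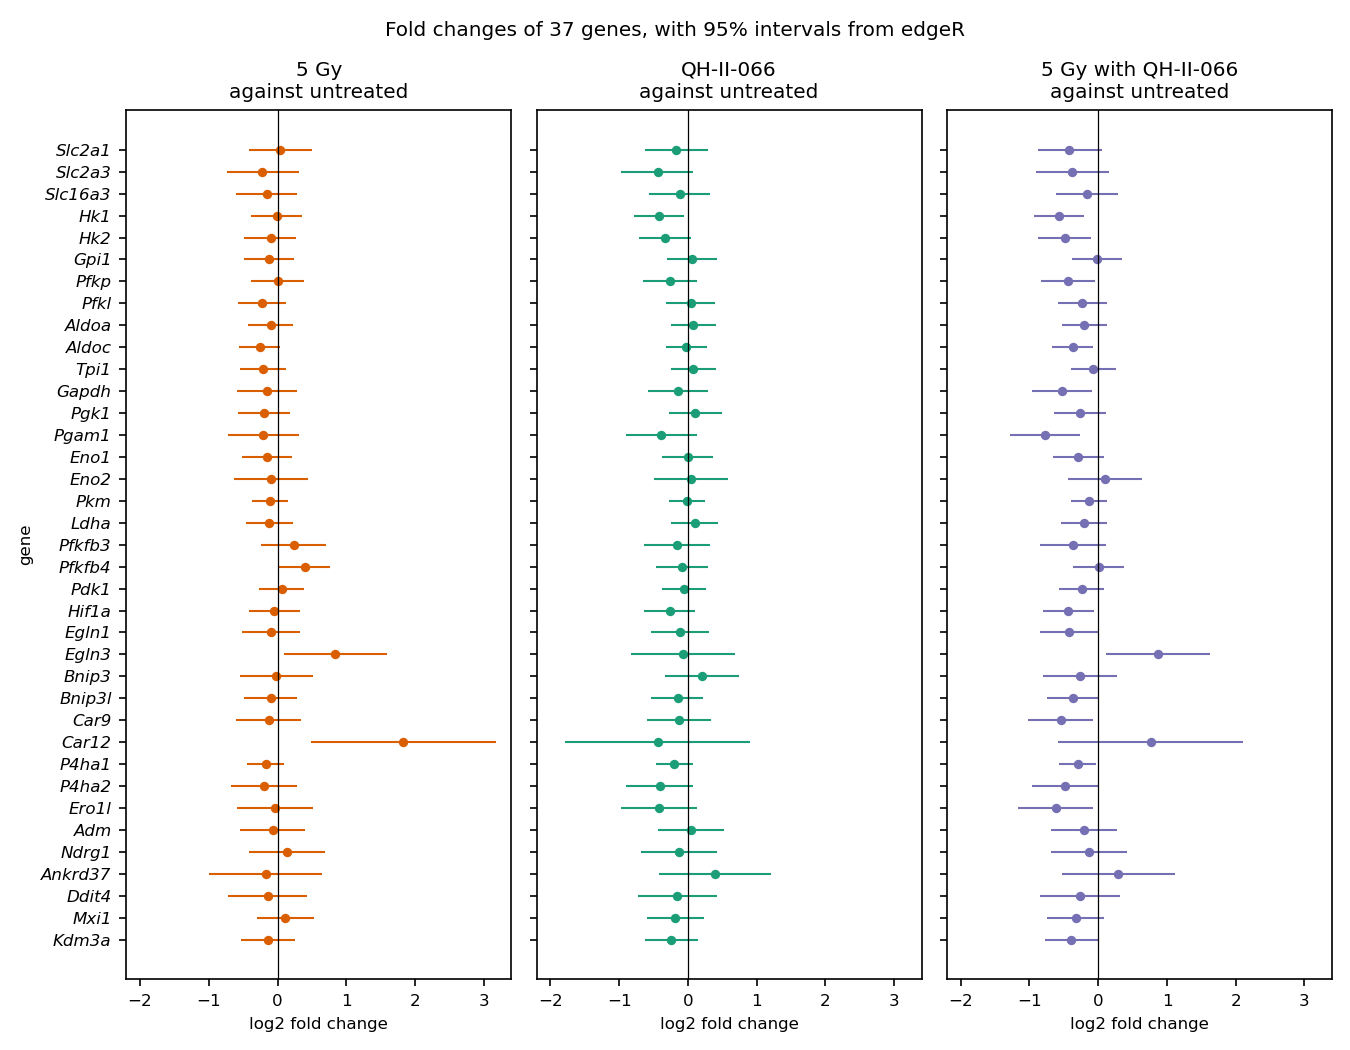
Log2 fold change of each gene (point) with its 95% interval (line) for 5 Gy, QH-II-066 and the combined group against untreated, from edgeR over 16 libraries. In the right panel 32 of 37 points lie left of 0, Pgam1 lowest at -0.77, and in the left panel Car12 lies at 1.83 with an interval from 0.49 to 3.18.

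Hexokinase 1 (Hk1, ENSMUSG00000037012, chromosome 10, 62268855 to 62379908, mm10), which phosphorylates glucose on entry, had the smallest p in 4 of the 8 comparisons. Its level was 305, 328, 346 and 223 CPM in untreated replicates 1 to 4, and 330, 277, 314 and 268 CPM in 5 Gy. It was 180, 208, 285 and 224 CPM in QH-II-066, and the combined libraries were at 172, 225, 245 and 166 CPM. All 4 combined libraries were below all 4 of the 5 Gy group, while untreated replicate 4 lay within the range of the combined group. Relative to untreated, the log2 difference was -0.57 ± 0.17 (SE) for the combined group (edgeR, adjusted p = 0.298) and -0.42 ± 0.17 for QH-II-066 (adjusted p = 0.546). From 5 Gy, the combined group differed by -0.56 ± 0.17 (edgeR, adjusted p = 0.209), and 5 Gy differed from untreated by -0.01, with a 95% interval of -0.38 to 0.35. With the gene length slope as a covariate, the combined group differed from untreated by -0.35 ± 0.12 and from 5 Gy by -0.30 ± 0.12.

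Hexokinase 2 (Hk2, ENSMUSG00000000628, chromosome 6, 82725025 to 82774454), the inducible form, was at 322, 397, 527 and 294 CPM in untreated and 385, 346, 352 and 351 CPM in 5 Gy. It was at 284, 330, 345 and 263 CPM in QH-II-066 and 208, 314, 323 and 250 CPM in the combined group. The 5 Gy libraries lay above every library of the 2 groups given the compound. Against untreated, the combined group had a log2 difference of -0.49 ± 0.18 (edgeR, adjusted p = 0.298), and -0.27 ± 0.13 with the gene length slope as a covariate. QH-II-066 alone differed from untreated by -0.33 ± 0.18 (edgeR, adjusted p = 0.546).

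Phosphofructokinase, the committed step, is encoded in this list by Pfkp and Pfkl. Pfkp (platelet type, chromosome 13, 6579768 to 6648777) was at 349, 453, 490 and 266 CPM in untreated, 414, 343, 438 and 359 CPM in 5 Gy, 246, 363, 366 and 324 CPM in QH-II-066 and 254, 311, 332 and 253 CPM in the combined group. The 5 Gy and combined libraries did not overlap, and the log2 difference between them was -0.43 ± 0.18 (edgeR, adjusted p = 0.232), or -0.20 ± 0.15 with the gene length slope as a covariate. The span of Pfkp overlaps that of Pitrm1 on the opposite strand, whose counts came to 31.7% of those of Pfkp. Counting without strand makes the level of Pfkp uncertain, and overlap of exons was not examined. Pfkl (liver type) was at 632 ± 48.6 CPM (SD, n = 4) in untreated, 540 ± 144 in 5 Gy, 648 ± 98.2 in QH-II-066, with 540 ± 65.9 in the combined group.

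Pgam1 (ENSMUSG00000011752, chromosome 19, 41911871 to 41918664), phosphoglycerate mutase, had the lowest fold change of the combined group against untreated. Levels were 464, 385, 461 and 276 CPM in untreated, 372, 274, 403 and 323 CPM in 5 Gy and 305, 299, 316 and 292 CPM in QH-II-066. In the combined group, replicates 1 and 4 were at 159 and 143 CPM, and replicates 2 and 3, at 303 and 323 CPM, lay within the untreated range. The log2 difference from untreated was -0.77 ± 0.24 (edgeR, adjusted p = 0.298), and it ranged from -0.60 to -0.96 as each library was left out. The 4 QH-II-066 libraries lay within 25 CPM of each other, and the group differed from untreated by -0.39 ± 0.24 (adjusted p = 0.547).

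The most abundant enzymes varied in how far the combined group lay from untreated, and Gapdh, given below, differed more than Pkm or Pgk1. Pkm, which makes pyruvate and ATP, was at 4374, 4472, 4720 and 4336 CPM in untreated, 4072, 3583, 5108 and 3805 CPM in 5 Gy, 4603, 4678, 4043 and 4503 CPM in QH-II-066 and 4138, 3870, 4158 and 4193 CPM in the combined group. It had the narrowest range of the list, 0.51 on the log2 scale, and all 4 combined libraries were below the lowest untreated one by a small margin, with a log2 difference of -0.13 ± 0.12 (edgeR, adjusted p = 0.542). Pgk1, the first ATP-forming enzyme, was at 2490, 2457, 2429 and 2297 CPM in untreated and 2229, 2252, 2105 and 1505 CPM in the combined group, again without overlap, and differed by -0.26 ± 0.18 (edgeR, adjusted p = 0.418). From QH-II-066, where Pgk1 was at 3068, 2722, 2136 and 2517 CPM, the combined group differed by -0.37 ± 0.18 (edgeR, adjusted p = 1), and the 5 Gy libraries were at 1976, 1641, 2897 and 1885 CPM. Eno1 was the third of the genes whose combined libraries were all below all untreated ones, at 4418 ± 224 CPM (SD, n = 4) in untreated and 3613 ± 707 in the combined group. Pkm, Pgk1 and Eno1 are the 3 lower genes without overlap, beside 1.69% of all genes.

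Gapdh, often used as a reference gene, was at 7967, 7832, 8216 and 6737 CPM in untreated, 6941, 5862, 8553 and 6277 CPM in 5 Gy, 6864, 7396, 6865 and 6764 CPM in QH-II-066 and 4463, 6264, 7288 and 3276 CPM in the combined group. Combined replicates 1 and 4 were the lowest of the 16 libraries, as they were for Pgam1. The combined group had a log2 difference from untreated of -0.53 ± 0.20 (edgeR, adjusted p = 0.298). Tpi1, which interconverts the triose phosphates, was at 3181, 3104, 3227 and 3297 CPM in untreated, 2626, 2269, 3653 and 2537 CPM in 5 Gy, 4000, 3634, 2735 and 3191 CPM in QH-II-066 and 3023, 2827, 2911 and 3417 CPM in the combined group. Its libraries overlapped in every comparison, and the combined group differed from untreated by -0.07 (95% interval -0.40 to 0.26).

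Ldha, which turns pyruvate into lactate, was at 3324, 3376, 3307 and 3282 CPM in untreated, a spread of under 100 CPM. The 5 Gy libraries were at 2802, 2523, 4173 and 2720 CPM, the widest range of the 4 groups. QH-II-066 libraries were at 4004, 3688, 3004 and 3556 CPM and combined libraries at 3319, 2960, 2805 and 2444 CPM. The combined group differed from untreated by -0.21 (95% interval -0.54 to 0.13). Aldoc, the brain-type aldolase, was at 119, 89.2, 108 and 84.6 CPM in untreated, 84.2, 75.0, 98.8 and 75.8 CPM in 5 Gy, 106, 83.5, 104 and 101 CPM in QH-II-066 and 63.8, 84.9, 87.0 and 73.7 CPM in the combined group. It differed by -0.37 ± 0.14 between combined and untreated (edgeR, adjusted p = 0.298) and by -0.35 ± 0.14 between combined and QH-II-066 (adjusted p = 1). Of the 15 glycolytic enzymes, 6 had an unadjusted p under 0.05 in the combined group against untreated, all lower, beside 8.8% of all genes, and Gpi1, Aldoa and Eno2 were not among them. As given above, 2 of the 37 genes were lower at this level once the skin score entered the fit.

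Of the 3 transporters, 0 had an unadjusted p under 0.05 for the combined group against untreated, with a median log2 difference of -0.38. Slc2a1 (chromosome 4, 119108711 to 119137983) was at 207, 286, 319 and 190 CPM in untreated, 243, 194, 364 and 227 CPM in 5 Gy, 231, 280, 166 and 212 CPM in QH-II-066 and 195, 186, 218 and 151 CPM in the combined group. The groups overlapped, and the combined group differed from untreated by -0.42 ± 0.22 (edgeR, adjusted p = 0.324). Slc2a3, the transporter GLUT3, ran from 21.1 to 66.5 CPM over the 16 libraries, highest in untreated replicate 3 and lowest in combined replicate 4. Slc16a3, the lactate exporter MCT4, was at 223 ± 34.0 CPM (SD, n = 4) in untreated and 200 ± 57.0 in the combined group, where combined replicate 4 held the highest level of all libraries at 284 CPM.

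Regulators of flux gave the smallest p of the interaction. Pfkfb3 (ENSMUSG00000026773, chromosome 2, 11471433 to 11554077), which raises fructose-2,6-bisphosphate and so activates phosphofructokinase, was at 39.1, 49.9, 48.3 and 31.0 CPM in untreated and 63.3, 48.3, 41.3 and 45.2 CPM in 5 Gy. It was at 22.1, 38.5, 53.6 and 35.9 CPM in QH-II-066 and 27.8, 33.0, 37.8 and 32.2 CPM in the combined group. All 4 combined libraries were below all 4 of 5 Gy, with a log2 difference of -0.60 ± 0.23 (edgeR, adjusted p = 0.214). With the gene length slope as a covariate that difference was -0.18 ± 0.14. The interaction, the difference made by the compound after 5 Gy minus that without it, was -0.43 ± 0.32 (edgeR, adjusted p = 0.899, 95% interval -1.11 to 0.24).

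Pfkfb4 (chromosome 9, 108991778 to 109032228) was at 5.45, 6.96, 6.27 and 6.68 CPM in untreated, 8.47, 10.2, 6.31 and 8.41 CPM in 5 Gy, 5.21, 5.14, 7.16 and 6.45 CPM in QH-II-066 and 6.46, 6.19, 6.00 and 6.85 CPM in the combined group. Of the 5 Gy libraries 3 were above all others and replicate 3 was not. The log2 difference from untreated was 0.40 ± 0.18 (edgeR, adjusted p = 0.298), and 0.22 ± 0.22 without the skin libraries. QH-II-066 differed from 5 Gy by -0.48 ± 0.18 (edgeR, adjusted p = 0.190), and the interaction was -0.31 ± 0.25 (adjusted p = 0.927). Pdk1, a kinase that turns off pyruvate dehydrogenase, was at 113 ± 18.6 CPM (SD, n = 4) in untreated, 117 ± 20.9 in 5 Gy, 109 ± 4.24 in QH-II-066, with 95.3 ± 17.9 in the combined group.

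Of the 3 oxygen-sensing genes, 0 passed the edgeR test in any comparison. Egln3 (ENSMUSG00000035105, chromosome 12, 54178981 to 54203860), a prolyl hydroxylase that HIF itself induces, was at 2.64, 7.62, 3.17 and 4.12 CPM in untreated and 3.39, 6.98, 2.71 and 3.58 CPM in QH-II-066. In 5 Gy it was at 6.30, 9.87, 8.71 and 6.55 CPM, and in the combined group at 6.25, 11.3, 6.74 and 7.74 CPM. Each library of the 5 Gy and combined groups was above 3 of the 4 untreated libraries and 3 of the 4 QH-II-066 libraries. Replicate 2 of untreated and of QH-II-066 lay among the 5 Gy and combined libraries. Log2 differences were 0.84 ± 0.35 for 5 Gy against untreated (edgeR, adjusted p = 0.257), 0.87 ± 0.35 for the combined group against untreated (adjusted p = 0.298) and 0.94 ± 0.36 for the combined group against QH-II-066 (adjusted p = 1). QH-II-066 differed from 5 Gy by -0.91 ± 0.35 (edgeR, adjusted p = 0.196), and the combined group differed from 5 Gy by 0.02, with a 95% interval of -0.72 to 0.77. Without the 5 skin libraries the 5 Gy value was 0.78 ± 0.46, and that of the combined group, with 1 library left, was 0.52 ± 0.59.

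Egln1, the main oxygen sensor of most cells, had group means of 230 ± 54.3 CPM (SD, n = 4) in untreated, 215 ± 46.7 in 5 Gy, 213 ± 47.4 in QH-II-066, with 171 ± 24.2 in the combined group. Hif1a, the oxygen-regulated subunit of HIF-1, which is controlled chiefly as a protein, was at 316 ± 78.6 CPM in untreated, 305 ± 35.5 in 5 Gy, 263 ± 33.4 in QH-II-066, with 233 ± 42.0 in the combined group. The combined group differed from untreated by -0.43 ± 0.20 for Egln1 (edgeR, adjusted p = 0.305). For Hif1a the difference was -0.44 ± 0.18 (edgeR, adjusted p = 0.298).

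Car12 (ENSMUSG00000032373, chromosome 9, 66713686 to 66766845) had the largest fold change of the list and the widest range, 4.35 on the log2 scale. It was at 0.869, 1.58, 0.863 and 0.281 CPM in untreated, 1.28, 7.08, 0.945 and 3.49 CPM in 5 Gy, 0.692, 0.902, 0.485 and 0.557 CPM in QH-II-066 and 0.730, 2.59, 0.955 and 1.94 CPM in the combined group. The 4 highest libraries, 5 Gy replicates 2 and 4 and combined replicates 2 and 4, are all among the 5 with skin transcripts. All 4 QH-II-066 libraries were below all 4 of 5 Gy, and the log2 difference was -2.27 ± 0.64 (edgeR, adjusted p = 0.188; DESeq2, adjusted p = 0.0160). From untreated, 5 Gy differed by 1.83 ± 0.63 (edgeR, adjusted p = 0.145; DESeq2, adjusted p = 0.0433). For the combined group the difference was 0.77 ± 0.63, or -0.79 ± 0.57 once the skin score entered the fit. Without the skin libraries the value for 5 Gy was 0.31 ± 0.55 (edgeR, adjusted p = 1), and without 5 Gy replicate 2 alone it was 1.10.

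Car9 (ENSMUSG00000028463, chromosome 4, 43506966 to 43513729), a much used marker of hypoxic tumour, was at 273, 322, 345 and 195 CPM in untreated, 243, 176, 388 and 231 CPM in 5 Gy, 276, 298, 198 and 269 CPM in QH-II-066 and 196, 202, 213 and 166 CPM in the combined group. The combined libraries lay close together and overlapped with the lowest library of each other group. Their log2 difference from untreated was -0.54 ± 0.22 (edgeR, adjusted p = 0.298), while 5 Gy and QH-II-066 each differed from untreated by -0.13, with a 95% interval of -0.60 to 0.34.

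**Figure D3:**
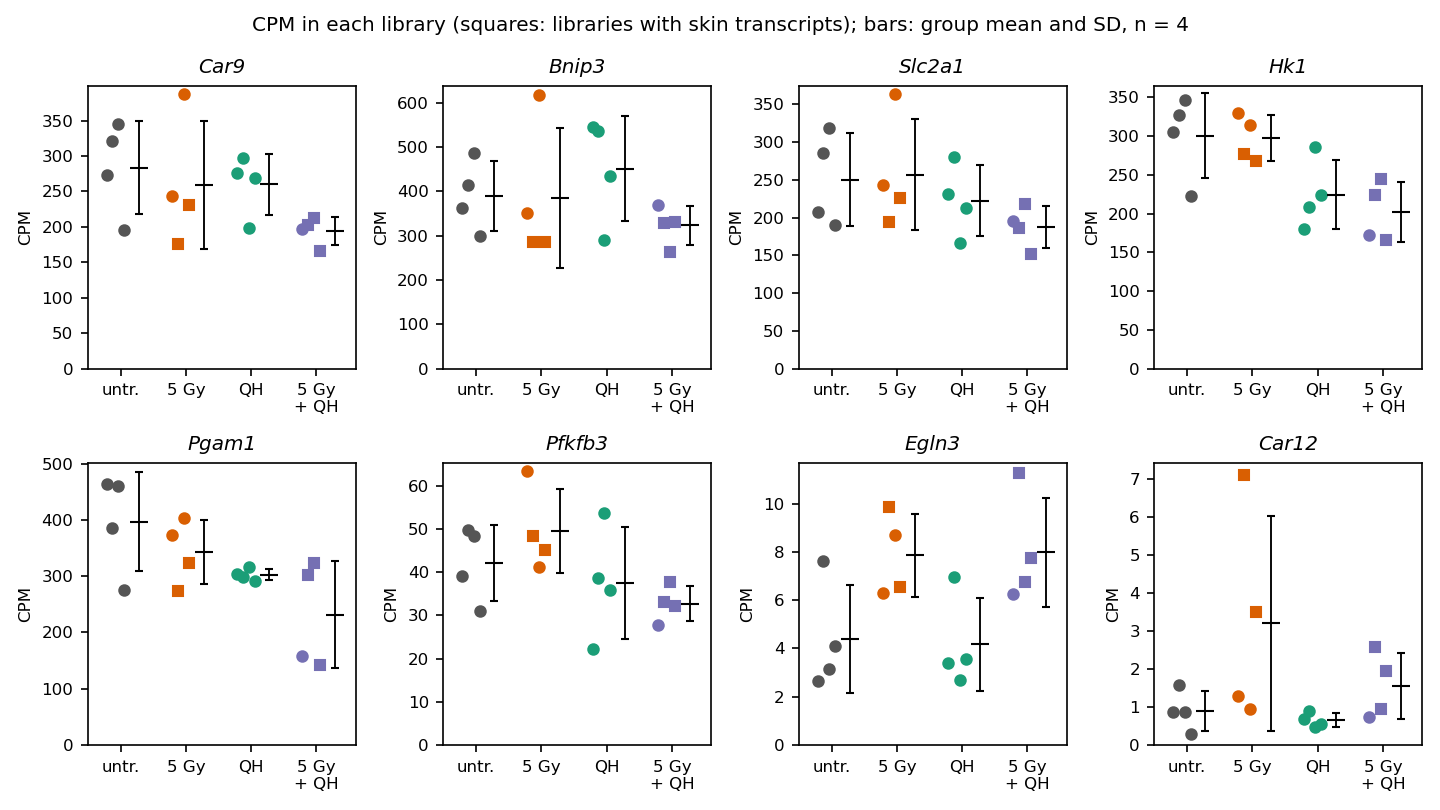
CPM of 8 genes in each library by group, where squares are the 5 libraries with skin transcripts and bars give the group mean and SD (n = 4). Car9, Bnip3 and Slc2a1 are each highest in 5 Gy replicate 3, Hk1 and Pfkfb3 show no overlap between 5 Gy and the combined group, and the 2 highest Car12 levels, 7.08 and 3.49 CPM, are squares of the 5 Gy group.

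Bnip3 and Bnip3l encode receptors that mark mitochondria for autophagy. Bnip3 (chromosome 7, 138890836 to 138909519) was at 362, 414, 486 and 299 CPM in untreated, 352, 287, 619 and 287 CPM in 5 Gy, 545, 536, 290 and 435 CPM in QH-II-066 and 369, 330, 264 and 332 CPM in the combined group. Within 5 Gy, replicate 3 stood far above the other libraries, and within QH-II-066, replicates 1 and 2 stood above replicate 3. The interaction was -0.46 ± 0.36 (edgeR, adjusted p = 0.912), with a 95% interval of -1.22 to 0.29. Bnip3l ran from 116 to 235 CPM, lowest in untreated replicate 4 and highest in untreated replicate 3.

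Among the genes for secretion and matrix, P4ha1 and P4ha2 encode collagen prolyl hydroxylases. P4ha1 was among the least variable of the list, at 196, 226, 222 and 153 CPM in untreated, 188, 160, 192 and 167 CPM in 5 Gy, 178, 198, 166 and 153 CPM in QH-II-066 and 146, 161, 171 and 169 CPM in the combined group, which differed from untreated by -0.30 ± 0.13 (edgeR, adjusted p = 0.298). P4ha2 was at 76.0, 106, 108 and 54.9 CPM in untreated, 74.6, 59.1, 97.2 and 70.5 CPM in 5 Gy, 58.5, 93.7, 45.9 and 60.3 CPM in QH-II-066 and 61.6, 58.2, 67.1 and 59.4 CPM in the combined group. QH-II-066 differed from untreated by -0.41 ± 0.23 for P4ha2 (edgeR, adjusted p = 0.546), with groups that overlapped. Ero1l, which forms disulfide bonds in the endoplasmic reticulum, ran from 255 to 691 CPM in untreated alone, and its mean was 303 ± 35.8 CPM (SD, n = 4) in the combined group. Adm, the vasodilator peptide adrenomedullin, was at 63.8 to 76.0 CPM in the group means.

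Among regulators of growth, chromatin and stress, Ankrd37, an ankyrin-repeat gene induced by HIF, varied most. It was at 5.85, 11.7, 10.3 and 10.6 CPM in untreated, 6.37, 4.86, 16.5 and 6.58 CPM in 5 Gy, 18.8, 13.7, 5.86 and 12.4 CPM in QH-II-066 and 16.1, 10.0, 10.0 and 10.9 CPM in the combined group. The span of its neighbour Ufsp2 on the opposite strand, with 703% of the counts of Ankrd37, overlaps it. The level of Ankrd37 is therefore uncertain, and overlap of exons was not examined. For Ankrd37 the spread within groups exceeded the difference between them, 0.29 ± 0.39 for the combined group against untreated (edgeR, adjusted p = 0.677). Mxi1, an antagonist of Myc, was at 54.9 ± 17.4 CPM (SD, n = 4) in 5 Gy and 40.4 ± 1.14 in the combined group, without overlap. With Hk1, Hk2, Pfkp and Pfkfb3 it made up the 5 of 37 genes whose combined libraries were all below those of 5 Gy, beside 3.97% of all genes. These 5 genes have deposited lengths of 5619 to 9395 bases. The other genes of the list within that range are Pdk1, Slc2a3, Ndrg1, P4ha2 and Hif1a, whose libraries overlapped between these groups. All remaining genes of the list are shorter, and their libraries overlapped as well. With the gene length slope as a covariate, the 9 lower genes of this comparison at an unadjusted p under 0.05 (edgeR) became 2. The part of gene length in the absence of overlap was not tested. Ndrg1, a stress-induced gene, Ddit4, an inhibitor of mTORC1, and the histone demethylase Kdm3a had group means of 109 to 132, 83.3 to 101 and 117 to 153 CPM.

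Individual libraries differed more than groups did, in these genes as in nearly all genes. A mean of 4 libraries varies less than a single library, so this is not a trait of these genes. For each of the 37 genes, the group means spanned less than the range within the widest group, as they did for 98% of all genes. The median span of group means was 0.39 and the median widest range within a group 0.91 on the log2 scale, against 0.47 and 1.08 over all genes. Many of the genes were high or low in the same libraries. In 5 Gy replicate 3, 35 of 37 genes were above their own mean over 16 libraries. There 13 (35.1%) had their highest level, beside 2.07% of all genes. Untreated replicates 2 and 3 had 36 and 34 genes above the mean. Untreated replicate 3 held the highest level of 10 (27%), near its share of 21.1% over all genes. By contrast 5 Gy replicate 2 had 8 genes above the mean, and untreated replicates 1 and 4 had 23 and 11. QH-II-066 replicates 1 to 4 had 21, 29, 11 and 18.

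The combined libraries were low together. Replicates 1 to 4 had 6, 11, 9 and 8 genes above their own means, and the mean over the group was 8.50 ± 2.08 (SD, n = 4), against 26.0 ± 11.5 in untreated, 19.5 ± 11.6 in 5 Gy and 19.8 ± 7.46 in QH-II-066. Replicate 4, the shallowest library, held the lowest level of 11 genes and replicate 1, the deepest, that of 7, while 22.7% and 12% of all genes were lowest there. Over all genes, 46.6% to 54.0% were above their mean in any library. Combined replicates 2 to 4 carried skin transcripts and replicate 1 did not, with a skin score of -0.73, and it had the fewest genes above the mean. The genes were chosen together, so no test was made on these counts.

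**Figure D4:**
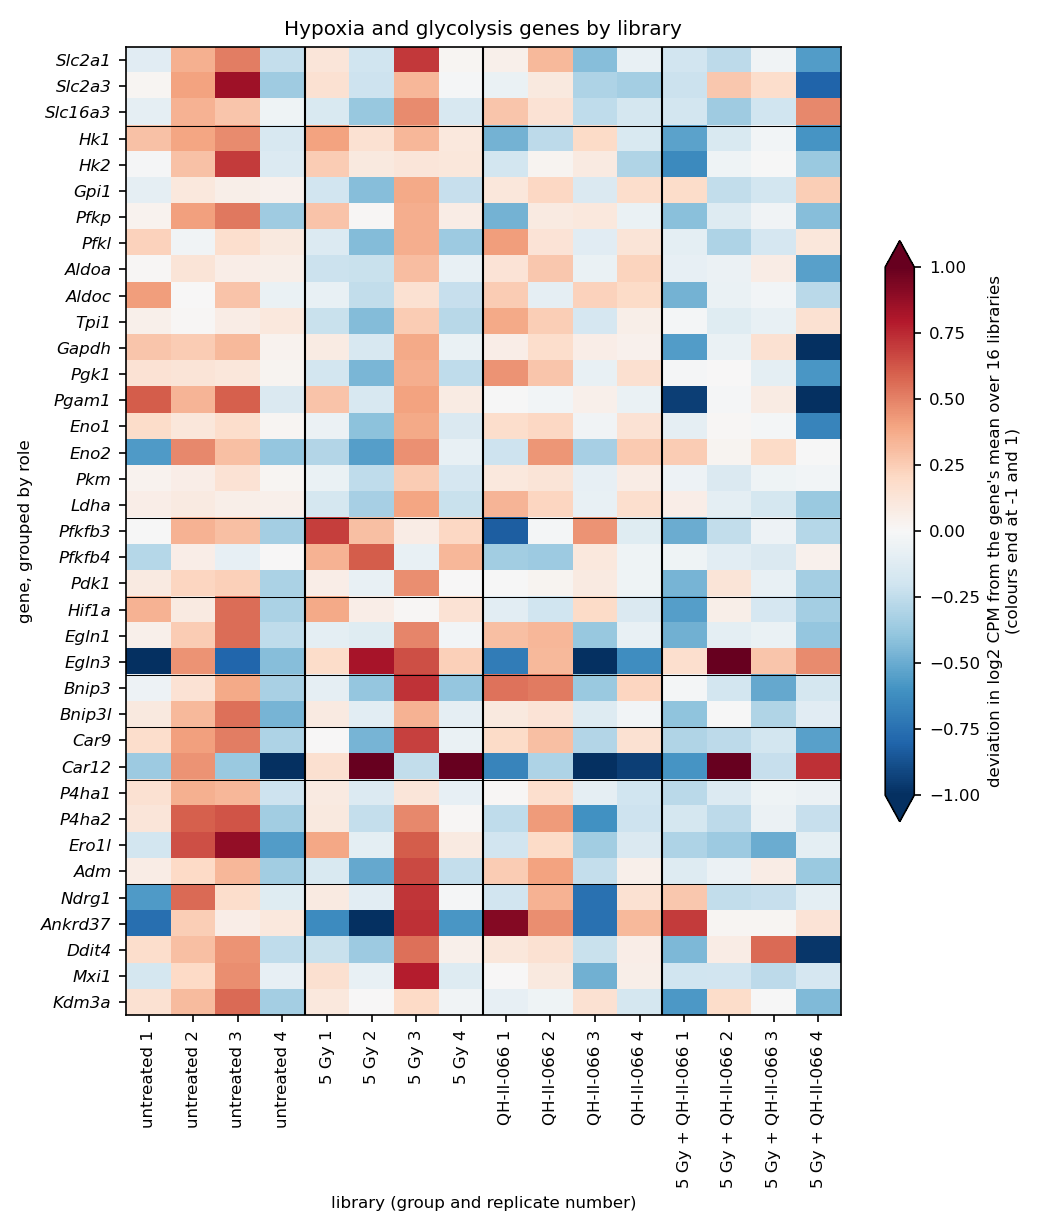
Deviation of log2 CPM from each gene's own mean over 16 libraries (colour, ending at -1 and 1), with genes in rows grouped by role and libraries in columns by group. The column of 5 Gy replicate 3 is red for 35 of 37 genes, the 4 combined columns are mostly blue with 6 to 11 genes above the mean, and the rows of Egln3 and Car12 follow a different order.

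Other genes of these pathways, from 5 lists made by pathway, gave a single call. Of 39 further genes known to be induced by hypoxia, all tested, 1 passed for 5 Gy against untreated: Lox, the collagen cross-linking enzyme lysyl oxidase. Lox was at 9.79, 16.9, 10.5 and 11.96 CPM in untreated and 109, 43.6, 56.7 and 29.3 CPM in 5 Gy, without overlap. The log2 fold change was 2.28 ± 0.48 (edgeR, adjusted p = 0.0386), and it passed in 16 of 28 settings, with adjusted p of 4.81e-05 to 0.171 and the value between 1.82 and 2.88. Leaving out a library ended the call for each untreated one (adjusted p of 0.0757 to 0.171), 5 Gy replicate 1 (0.051) or 2 (0.108), QH-II-066 replicate 2 (0.0525) or 4 (0.0509) and combined replicate 3 (0.0518), all with edgeR. The call was also lost with no filter (0.0618), with the muscle score as a covariate (0.0848) and with the replicate block (0.0599). Markers of fibroblasts and matrix, 14 of 14 above 0, were higher in the same libraries, with a summed level of 574 to 937 CPM in untreated and 2203 to 4779 CPM in 5 Gy. Their part in the value of Lox was not tested. Lox was at 26.3 ± 12.4 CPM (SD, n = 4) in QH-II-066. The combined group had 22.9 ± 13.3 CPM of Lox, and the marker sums of these 2 groups were 719 to 1584 and 757 to 2515 CPM.

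Gbe1, the glycogen branching enzyme, had the smallest p of that list in the test of any difference (edgeR, adjusted p = 0.125). It was at 89.8, 92.6, 121 and 64.4 CPM in untreated, 98.4, 85.1, 97.9 and 74.4 CPM in 5 Gy, 66.5, 75.1, 87.7 and 75.7 CPM in QH-II-066 and 46.4, 62.4, 57.7 and 47.2 CPM in the combined group. The combined libraries lay below all other 12, and differed from untreated by -0.78 ± 0.17 (edgeR, adjusted p = 0.298). Kdm4b, a histone demethylase, differed by -0.61 ± 0.15 in the same comparison (edgeR, adjusted p = 0.298). Vegfa, the vascular growth factor, was at 132 ± 35.6 CPM (SD, n = 4) in untreated, 123 ± 45.1 in 5 Gy, 119 ± 19.3 in QH-II-066, with 102 ± 11.2 in the combined group. For the combined group against untreated, 8 of the 39 were lower and 1 higher at an unadjusted p under 0.05, beside 8.8% and 7.44% of all genes, and their median was -0.02, beside -0.29 for the 37 genes and -0.00 for all genes.

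No gene passed in the other 4 lists with edgeR. Among HIF subunits and their regulators, 15 of 16 were tested, and Rbx1, Eloc and Arnt had the smallest p. Rbx1 and Eloc, parts of the ligase that degrades HIF, were at 188 ± 42.2 and 157 ± 37.4 CPM (SD, n = 4) in untreated and 247 ± 53.9 and 205 ± 47.6 in the combined group. QH-II-066 alone was near the combined group, at 243 ± 72.7 and 211 ± 70.9 CPM, and 5 Gy was at 156 ± 30.25 and 129.5 ± 31.5. Arnt, the constant partner of HIF, was at 66.7 ± 8.76 CPM in untreated and 52.0 ± 9.30 in the combined group. Of the 7 pentose phosphate genes, Rpia was at 37.9 ± 1.75 CPM in 5 Gy and 50.0 ± 6.85 in the combined group, G6pdx at 85.3 ± 11.5 and 55.2 ± 6.41, and Taldo1 at 157 ± 15.7 and 210 ± 50.5. In untreated and QH-II-066, Rpia was at 43.6 ± 4.79 and 48.25 ± 5.29 CPM, G6pdx at 72.9 ± 8.00 and 68.0 ± 18.6, and Taldo1 at 160 ± 36.3 and 196 ± 22.5. Of the 12 genes around pyruvate dehydrogenase, Pdhx was at 52.5 ± 0.919 CPM in untreated and 45.4 ± 2.42 in 5 Gy. Pdk4, a kinase abundant in muscle, ranged widely, at 9.18 ± 14.1 CPM in the combined group and 0.561 ± 0.631 in untreated. Combined replicate 3 alone was at 30.0 CPM, and replicates 1, 2 and 4 were at 0.35, 0.823 and 5.51 CPM. The summed level of the skeletal muscle markers, 17 of 18 of them tested, was 21.4 to 1492 CPM in the combined group and 12.1 to 153 CPM in untreated. The mean log2 CPM of these markers was 4.65 in combined replicate 3 and 5.78 in combined replicate 4. The part of muscle in the level of Pdk4 was not tested. Pdp2, a pyruvate dehydrogenase phosphatase, was at 13.8 ± 6.90 CPM in untreated and 6.97 ± 2.96 in the combined group. Of the tissue-restricted isoforms 11 of 17 were tested. Pfkfb1 was at 1.47 ± 0.158 CPM in untreated and 3.08 ± 1.57 in QH-II-066, Ldhb at 339 ± 13.6 and 354 ± 46.5, and Slc2a4 at 5.53 ± 1.44 and 9.70 ± 5.58, each with an adjusted p over any difference of 0.312 to 0.384 (edgeR). QH-II-066 replicate 3 held the highest level of all 16 libraries for Pfkfb1 (5.22 CPM) and Slc2a4 (17.7 CPM). Its adipocyte markers, with a mean log2 CPM of 6.24, were also the highest, and their part was not tested.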

How the data were processed

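Tumour RNA was measured in 16 libraries, in 4 groups of 4 by sample title. Libraries were made by transcriptome capture, per the labels' protocols, in which probes enrich coding fragments. The submitters' processing notes name STAR 2.4.1a, featureCounts, edgeR and mm10. Read pairs were counted as fragments by featureCounts 1.6.0 with no strand option, per the file headers. Fragments where genes on opposite strands overlap could thus not be assigned by strand. Whether these were counted or lost was not examined. The deposited values are raw counts per gene, not normalized by the authors. Named pseudogene copies held at most 0.357% of the counts of their parent.

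Levels are CPM with TMM scaling, or RPKM with the deposited gene length. A single edgeR fit (version 4.0.16, in R 4.3.3) held the 16 libraries with a mean per group, after filterByExpr, and the robust two-sided quasi-likelihood test was used, adjusted over 16101 genes at a threshold of 0.05. Standard errors (SE) and 95% intervals of log2 fold changes come from it. Log2 CPM used a prior count of 2. The gene length slope used genes with a mean log2 CPM above 3. Alternatives were RLE scaling, DESeq2 1.42.0, limma-voom (limma 3.58.1) with sample weights, no filter, a filter of 1 CPM in 4 libraries, the replicate number as a block, the compared groups alone, an adjusted p under 0.1, covariates for skin, muscle and gene length slope, the fit without 5 skin libraries and each library left out. The code of the tests was checked on simulated counts with a fixed spread that was not that of these tumours. Power on these data was not examined.

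The genes, lists and alternatives were chosen with earlier results of these data known. Genes given in full had the 3 smallest p of a comparison, the 3 highest or lowest RPKM or the 3 widest or narrowest ranges, and from each other list those past the threshold or the 3 smallest p. Pfkl, Slc2a1, Car9, Egln1, Hif1a, Vegfa and other genes given by group or for their sequence fall outside this rule and were named to cover each role. A count of 0, taken as under 3 counts, allows up to 0.0735 CPM in the deepest library and 0.429 CPM in the shallowest, by counting error only.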

Additional observations from a re-analysis of the deposited data

Results flagged for a closer look

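In 8 of 148 sets of 4 libraries (37 genes in 4 groups), or 5.41%, the highest or lowest library stood apart from the other 3 by Dixon's criterion, and chance alone gives about 1 in 20. In 5 Gy, Hk2 was high in replicate 1 at 385.2 CPM, where the other 3 lay between 346 and 352 CPM, and Egln1 was high in replicate 3 at 284.4 CPM. In QH-II-066, Gapdh was high in replicate 2 at 7396.3 CPM and Mxi1 low in replicate 3 at 33.48 CPM. Combined replicate 4, the shallowest library, was low for Pgk1 at 1504.7 CPM and Eno1 at 2564.4 CPM. Also in the combined group, Pkm was low in replicate 2 at 3869.8 CPM and Ankrd37 high in replicate 1 at 16.12 CPM.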

How the results depend on the processing

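The count of genes past the threshold stayed at 0 of 37 in 216 combinations of comparison and alternative and moved in 6. It stayed at 0 under RLE scaling, both filters, an adjusted p under 0.1, the 3 covariates and the fit without skin libraries in every comparison run. With each library left out in turn the count ranged from 0 to 0 in all 8 comparisons. DESeq2 passed 1 gene for 5 Gy against untreated (Car12), 1 for QH-II-066 against 5 Gy (Car12) and 2 for any difference (Car12 and Hk1), where it passed 6.33%, 3.51% and 5.92% of all genes. Limma-voom with sample weights passed 5 genes for QH-II-066 against untreated (28.9% of all genes), 11 for QH-II-066 against 5 Gy (31.7%) and 7 for any difference (29.9%), and the cause was not tested. For the fold changes with the 3 smallest p of each comparison, 559 values under alternatives kept their direction and side of the threshold, 5 passed it and 0 reversed. Car12 in the combined group against untreated, which is not among them, turned from 0.77 to -0.79 once the skin score entered the fit.

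With the replicate number as a block the count was 0 of 37 in all 8 comparisons. The numbers did not pair the libraries: of 24 same-numbered pairs, 12 had a correlation of deviations above 0.1, from -0.426 to 0.484, and 4 of 16 libraries correlated best with their own number. The median for the combined group against untreated was -0.15 once the skin score entered the fit, and over the other alternatives it lay between -0.20 and -0.40. Depth limits the genes of lowest level, Car12, Egln3 and Pfkfb4 among them, and the shallowest library, combined replicate 4.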
